A study of Mus musculus with 6 samples.

Results

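The genes described here encode the oxidative phosphorylation machinery, and they were chosen by symbol. They are the protein-coding genes of the GRCm38 mouse annotation whose symbol begins with Nduf, Sdha, Sdhb, Sdhc, Sdhd, Uqcr, Cox4, Cox5, Cox6, Cox7, Cox8, Atp5, mt-Nd, mt-Co, mt-Cytb or mt-Atp, with a mean of at least 5 CPM, which are counts scaled to the library total, over 6 libraries. Of 54453 genes in the tables, 111 protein-coding genes matched and 101 passed this minimum. These were 75 nuclear-encoded subunits (36 of complex I, 4 of complex II, 8 of complex III, 11 of complex IV and 16 of complex V), 13 mitochondrially encoded subunits and 13 nuclear-encoded assembly or accessory factors that share the prefixes. Just inside the minimum lay Sdhaf4 with a mean of 7.96 CPM, mt-Nd6 with 9.64 and Atp5s with 9.74, and just outside lay Sdhaf3 with 4.35, Cox7a1 with 0.565 and Cox6b2 with 0.235.

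Oxidative phosphorylation passes electrons from NADH and succinate along complexes I to IV of the inner mitochondrial membrane to oxygen, and complex V, the ATP synthase, uses the resulting proton gradient to make ATP. Complex II is wholly nuclear encoded, whereas the other complexes join nuclear-encoded subunits, imported from the cytosol, with subunits transcribed from the mitochondrial genome. Mitochondrial messengers are cut from long polycistronic transcripts, so their levels depend on processing and stability as well as on transcription, while nuclear subunit genes are known to share promoter motifs for factors such as NRF1, GABP and YY1.

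RNA was sequenced from organoids, which are epithelial cultures grown in Matrigel, a gel of extracellular matrix. The 3 lines, T91, T113 and T118, came from pancreatic tumours of KPC mice, which model ductal adenocarcinoma of the pancreas, and all carried the genotype that the labels give as KPF/FC without spelling it out. The control group held 3 libraries with a hairpin RNA against Renilla luciferase, and the knockdown group held 3 libraries with Scrib hairpin 5523, which targets the messenger of the polarity scaffold protein Scribble. Each line gave 1 library per hairpin. T91 was derived from a female at passage 10, T113 from a male at passage 13 and T118 from a male at passage 11. The sources used here give no ages, and 5523 was the only Scrib hairpin used.

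The libraries held 24035559 to 36235773 estimated counts. Scrib (chr15:76047158-76069784, GRCm38) stood at 177, 157 and 158 CPM in the Renilla libraries of T91, T113 and T118 and at 29.7, 35.0 and 30.0 CPM in the Scrib hairpin libraries, and it was the 1 gene of 14169 tested that passed (log2 fold change -2.38 ± 0.11 SE, edgeR quasi-likelihood test, adjusted p = 0.00582). Summed epithelial markers lay between 7883 and 13065 CPM in every library. Fibroblast markers summed to 1.10 to 1.74 CPM with the Renilla hairpin and 1.48 to 7.82 CPM with the Scrib hairpin, leukocyte markers to 3.41 to 4.44 and 2.21 to 6.16 CPM, endothelial markers to 0.718 to 3.602 and 1.01 to 4.001 CPM, and acinar markers to 0.567 to 0.828 and 0.214 to 1.08 CPM. The highest fibroblast, leukocyte and acinar sums, 7.82, 6.16 and 1.08 CPM, were all in the T91 Scrib hairpin library. The highest endothelial sum was in the T118 Scrib hairpin library. The fibroblast gene Lum and the acinar gene Cela2a were at 0 counts throughout. In bulk RNA of this kind, fewer cells of a type and less RNA per cell cannot be told apart.

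The question put to these genes was whether their messengers changed with the Scrib hairpin when each library was set against the control of its own line. None of the 101 members rose or fell with edgeR's quasi-likelihood test, where 0.00706% of all genes tested passed, and none did with DESeq2, where 0.445% passed. Without adjustment, 0 members fell under 0.05 in the edgeR fit, against 6.61% of all genes. No member had all 3 libraries of a hairpin above all 3 of the other, against 4.74% of all genes in either direction. The fitted log2 fold changes (Scrib minus Renilla hairpin) of the 75 nuclear-encoded subunits ran from -0.13 (Ndufv3) to 0.15 (Ndufa12), with a median of 0.04 and 57 of 75 above 0. The 13 mitochondrially encoded subunits ran from -0.18 (mt-Nd4l) to 0.25 (mt-Atp8), with a median of -0.06 and 4 of 13 above 0. Over all genes tested the median was -0.01 and 48.2% were above 0. The median standard error was 0.12 for the nuclear-encoded subunits and 0.18 for the mitochondrially encoded ones. Each line was sampled once per hairpin. The p-values rest on these 3 lines alone, with the variance of each gene estimated partly from other genes.

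**Figure D1:**
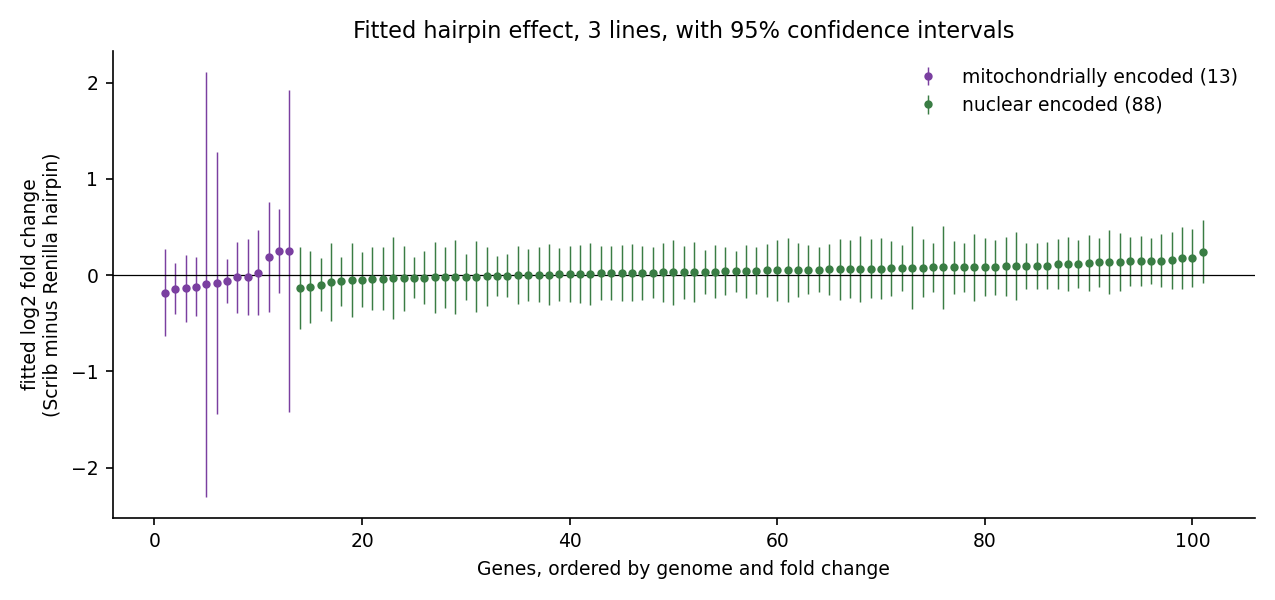
Fitted log2 fold change (Scrib minus Renilla hairpin, y axis) with its 95% confidence interval for each of the 101 genes, ordered along the x axis by genome and by fold change. Every interval includes 0, and the widest belong to the mitochondrially encoded mt-Co3, mt-Atp8 and mt-Co2.

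The lines differed in direction beneath these small averages. In T91, 74 of 75 nuclear-encoded subunits were higher in the Scrib hairpin library than in its control, by a median log2 ratio of 0.30, where 50.1% of all genes were higher. In T118, 2 of 75 were higher, with a median log2 ratio of -0.18, where 49.7% of all genes were higher. In T113, 41 of 75 were higher, with a median of 0.02, where 49.4% of all genes were higher. Higher in T91 and lower in T118 were 72 of 75 subunits, or 96.0%, against 28.7% of all genes tested. The exceptions were Ndufs1, at -0.04 in T91, and Ndufa12 and Ndufc2, at 0.02 and 0.01 in T118. Of the 75 subunits, 63 had at most 858 coding bases. Among all protein-coding genes tested of up to that length, 76.3% were higher in T91 and 42.9% in T118. With 1 library per hairpin and line, these ratios have no replicate check and the difference between lines was not tested. The list of 9 epithelial markers also differed in direction by line, with median log2 ratios of 0.15, -0.15 and -0.39 in T91, T113 and T118 and 6, 3 and 1 of 9 higher with the Scrib hairpin. Higher in T91 and lower in T118 were 6 of these 9 markers, or 66.7%, and their summed level was 9640, 8571 and 13065 CPM with the Renilla hairpin against 10650.4, 7883 and 9968 CPM with the Scrib hairpin. Their part in the result was not tested. The direction of the median did not depend on scaling by TMM, total counts or DESeq2 size factors in any line, although with DESeq2 size factors 1 subunit rather than 2 was higher in T118.

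**Figure D2:**
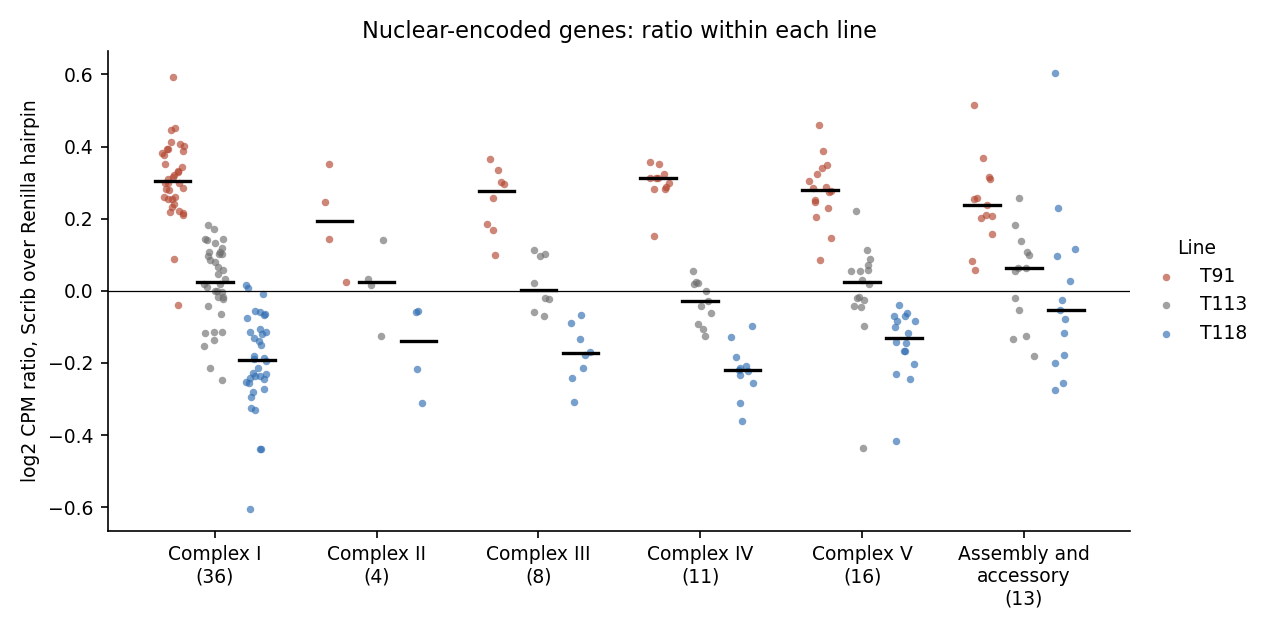
Log2 ratio of CPM, Scrib over Renilla hairpin (y axis), of each nuclear-encoded gene in each line, grouped along the x axis by complex with the number of genes in brackets. Each point is 1 gene in 1 pair of libraries and black bars are medians. T91 lies above 0 and T118 below 0 in each of the complexes, with medians of 0.30 and -0.18 over the 75 subunits.

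Complex I oxidises NADH, and its core subunits carry the redox centres and proton channels while accessory subunits surround them. In T91, T113 and T118 its 36 nuclear-encoded subunits had median log2 ratios of 0.31, 0.03 and -0.19. Ndufa12, an accessory subunit, stood at 90.4, 71.4 and 88.0 CPM with the Renilla hairpin in T91, T113 and T118 and at 110.2, 78.9 and 89.0 CPM with the Scrib hairpin. It was higher with the Scrib hairpin in all 3 lines, by little in T118, and did not pass (0.15 ± 0.10 SE, edgeR adjusted p = 0.795). Ndufs6, a zinc-binding accessory subunit, stood at 62.3, 51.0 and 60.3 CPM against 77.6, 58.0 and 57.7 CPM, so that T91 and T113 were higher and T118 lower. Ndufv3, an accessory subunit of the NADH-oxidising arm, had the lowest ratio of all nuclear-encoded subunits in T118. It stood at 62.2, 68.9 and 62.2 CPM with the Renilla hairpin and at 79.0, 62.7 and 40.9 CPM with the Scrib hairpin. The T118 Scrib hairpin library was below every other library for this gene, and the T91 Scrib hairpin library was above every other (log2 ratios -0.60 and 0.34, fitted -0.13 ± 0.18 SE). Ndufa6, an accessory subunit that binds acyl carrier protein, stood at 52.6, 67.2 and 63.4 CPM against 65.8, 56.6 and 46.7 CPM, and it too was higher in T91 and lower in T118. Ndufa1, a small membrane subunit encoded on the X chromosome, had the highest T91 ratio of all nuclear-encoded subunits (0.59), from libraries at 16.6 and 25.03 CPM. The 7 nuclear core subunits and the 29 accessory subunits had median ratios of 0.26 and 0.32 in T91 and of -0.21 and -0.19 in T118.

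Complex II is succinate dehydrogenase, which also belongs to the citric acid cycle. Its 4 subunits had median log2 ratios of 0.19, 0.02 and -0.14 in the 3 lines, in the same order. Sdha, the flavoprotein that oxidises succinate, was close to even, at 343, 320.2 and 367 CPM with the Renilla hairpin and 349, 324 and 352 CPM with the Scrib hairpin (-0.01 ± 0.09 SE). Sdhb, the iron-sulphur subunit, stood at 95.6, 95.4 and 106 CPM against 122, 105 and 91.2 CPM, so that T91 was the highest library and T118 the lowest with the Scrib hairpin. The membrane anchors Sdhc and Sdhd differed in the sign of their fitted fold change, which passed for neither. Sdhc stood at 132, 133 and 141 CPM against 145, 122 and 113.3 CPM (-0.10 ± 0.11 SE). Sdhd stood at 167, 165 and 193 CPM against 198, 169 and 186 CPM (0.07 ± 0.10 SE). None of the 4 passed (edgeR adjusted p from 0.864 for Sdhc to 0.987 for Sdha).

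Complex III passes electrons from ubiquinol to cytochrome c. Its 8 nuclear-encoded subunits had median log2 ratios of 0.28, 0.00097 and -0.17. Uqcrc1, a large matrix-facing subunit and the most abundant of the nuclear ones by CPM, stood at 238, 221 and 269 CPM with the Renilla hairpin and at 285, 236 and 256 CPM with the Scrib hairpin (0.10 ± 0.10 SE). Its partner Uqcrc2 stood at 168, 166 and 185 CPM against 181, 163 and 174 CPM (-0.0044 ± 0.09 SE). Uqcrh, the hinge protein that assists the contact with cytochrome c, stood at 130.1, 121 and 137 CPM against 148, 119.5 and 110.3 CPM, again highest in T91 and lowest in T118 with the Scrib hairpin. The small subunit Uqcr10 stood at 81.5, 71.9 and 91.2 CPM against 102.8, 77.8 and 78.6 CPM (0.08 ± 0.13 SE).

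Complex IV is cytochrome c oxidase. Its 11 nuclear-encoded subunits, counting Ndufa4, a protein once placed in complex I, had median log2 ratios of 0.31, -0.03 and -0.22. Cox4i1, a regulatory subunit and the most abundant of these by CPM, stood at 237, 229 and 242 CPM with the Renilla hairpin and at 294, 229 and 206 CPM with the Scrib hairpin. The control libraries lay close together and the Scrib hairpin libraries on both sides of them, so that the group standard deviation was 6.43 CPM with the Renilla hairpin and 45.7 CPM with the Scrib hairpin (both n = 3). Cox8a stood at 195, 181 and 225 CPM against 239, 175 and 176 CPM (-0.04 ± 0.14 SE). Cox7c stood at 117, 129.8 and 129.2 CPM against 129.4, 119.0 and 111 CPM (-0.06 ± 0.11 SE). These small membrane subunits were higher in T91 alone. Cox5a stood at 146, 139 and 175 CPM against 178, 144 and 164 CPM (0.08 ± 0.11 SE). Ndufa4 stood at 118.3, 108 and 123 CPM against 152, 110.3 and 112.6 CPM (0.08 ± 0.12 SE). Both were higher in T91 and T113 and lower in T118.

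Complex V joins a catalytic F1 head to a rotating c-ring in the membrane. Its 16 nuclear-encoded subunits had median log2 ratios of 0.28, 0.02 and -0.13. Atp5b, the catalytic beta subunit, was the nuclear-encoded member with the highest CPM, at 1655, 1472 and 1636 CPM with the Renilla hairpin and 1832, 1531 and 1525 CPM with the Scrib hairpin (0.03 ± 0.10 SE). The c-ring subunit is encoded by Atp5g1, Atp5g2 and Atp5g3, whose mature proteins are identical. Atp5g3 was the main source, at 258 to 314 CPM in the control libraries, followed by Atp5g1 at 96.4 to 136 CPM and Atp5g2 at 14.1 to 16.1 CPM. Per kilobase of coding sequence the means over 6 libraries kept that order, at 689, 295 and 33.5 CPM per kb. Atp5g1 stood at 112, 96.4 and 136 CPM with the Renilla hairpin and at 135, 112 and 131 CPM with the Scrib hairpin (0.14 ± 0.10 SE, edgeR adjusted p = 0.805). Atp5g2 stood at 14.1, 16.1 and 14.6 CPM against 17.5, 11.8 and 13.9 CPM, lowest in the T113 Scrib hairpin library (-0.07 ± 0.17 SE). Atp5j2, the f subunit of the membrane part, stood at 120.5, 92.5 and 123 CPM against 141, 98.4 and 92.0 CPM, and its T118 ratio of -0.42 was the lowest of complex V. Atp5o, the stalk protein that confers oligomycin sensitivity, stood at 170.3, 161 and 181 CPM against 213, 167 and 164 CPM. The counts of Atp5l, a membrane subunit, are uncertain, since it shares sequence with the counted pseudogene Gm10221.

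The assembly and accessory factors help to build the complexes. With the Scrib hairpin 13, 8 and 5 of 13 were higher in T91, T113 and T118, with median log2 ratios of 0.24, 0.06 and -0.05. Ndufaf4, a complex I assembly factor (chr4:24898083-24905001), had the smallest p of all 101 genes. It stood at 38.8, 32.5 and 41.3 CPM with the Renilla hairpin and at 40.4, 34.01 and 62.9 CPM with the Scrib hairpin. The difference was small in T91 and T113 and lay mostly in the T118 pair (log2 ratios 0.06, 0.06 and 0.61), against the direction of the subunits in that line, and the gene did not pass (0.24 ± 0.14 SE, edgeR adjusted p = 0.783). Sdhaf1, which supplies iron-sulphur clusters to Sdhb, stood at 14.7, 14.8 and 13.5 CPM against 18.3, 15.9 and 14.6 CPM, higher in each line without passing (edgeR adjusted p = 0.804), and its counts are uncertain because E130208F15Rik shares 70% of its transcript. Ndufaf7, a methyltransferase needed for complex I assembly, stood at 23.3, 23.9 and 22.2 CPM against 26.0, 23.0 and 19.6 CPM. Atp5s, coupling factor B, stood at 10.3, 9.86 and 9.35 CPM against 12.2, 8.69 and 8.12 CPM. Cox7a2l, a supercomplex assembly factor, stood at 147, 151 and 155 CPM against 176, 138 and 143 CPM (0.0022 ± 0.11 SE).

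Tissue-restricted isoforms were near or at 0, and the common forms carried the counts. Cox7a1, the heart and muscle form, had a mean of 0.565 CPM where Cox7a2 stood at 79.6 to 108 CPM, and Cox6b2, the testis form, had 0.235 CPM where Cox6b1 stood at 141 to 189.8 CPM. Cox6a2, also a muscle form, averaged 0.0237 CPM where Cox6a1 stood at 168 to 245 CPM. Cox4i2 and Ndufa4l2, which are known to be induced by low oxygen, averaged 0.00693 and 0.0157 CPM. Cox8b, Cox8c and Cox7b2 had 0 counts in all 6 libraries, which leaves a level of up to 3 counts per library undetected.

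Most nuclear-encoded subunits are short proteins, and coding length moved with the within-line ratios. The median coding length was 429 bases for the 75 subunits and 1386 bases for the 12257 protein-coding genes tested, and 63 of the 75 fell among the shortest genes, those of up to 858 coding bases. In T91 the median log2 ratio of all protein-coding genes was 0.17 among those shortest genes, 0.06 from there to 1386 bases, -0.04 from there to 2208 bases and -0.23 above that. In T118 the same medians were -0.05, -0.01, 0.01 and 0.05, the opposite slope. In T113 they lay between -0.01 and 0.00079. Among the shortest genes, the 63 subunits had medians of 0.31 in T91 and -0.20 in T118. All 3072 genes of that class had medians of 0.17 and -0.05. The 8 subunits between 1386 and 2208 bases had medians of 0.12 in T91 and -0.08 in T118. All genes of that class had -0.04 and 0.01. Lengths were not matched within a class, so subunits and other genes of a class can differ in length. The part of coding length in the result was not tested. Cytosolic ribosomal proteins, another group of mostly short proteins, had median ratios of 0.31, 0.08 and -0.03 in T91, T113 and T118 over 77 genes. Nuclear-retained RNA, a marker list for RNA handling, summed to 182 to 278 CPM with the Renilla hairpin and 133 to 229 CPM with the Scrib hairpin, with median log2 ratios of -0.76, -0.04 and -0.43 over its 3 tested genes, and its part was not tested either.

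**Figure D3:**
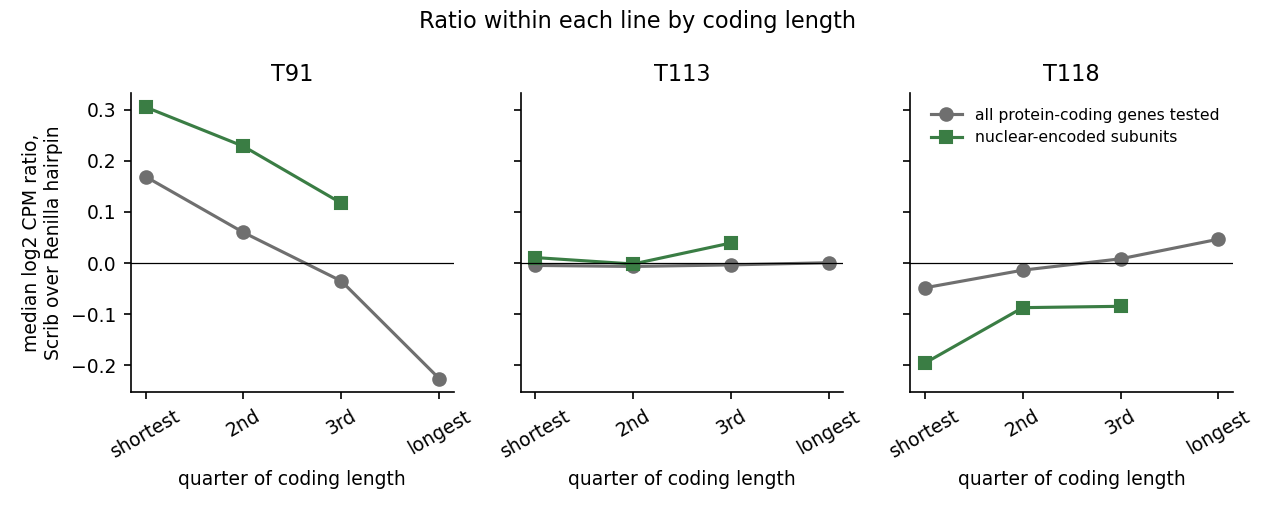
Median log2 ratio of CPM, Scrib over Renilla hairpin (y axis), in classes of coding length with like numbers of protein-coding genes (x axis, shortest to longest), for each line. Grey circles are all protein-coding genes tested and green squares the nuclear-encoded subunits, of which 63, 4 and 8 fall in the classes up to 858, 1386 and 2208 bases and none in the longest.

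Because nearly all nuclear-encoded subunits were higher in T91 and lower in T118 with the Scrib hairpin, their promoters are shown for motifs of the factors known for this gene class. RefSeq promoters (GRCm38.p6, 250 bases before to 50 after the start) were matched for 63 of the 75 subunits. The motifs searched on both strands were GCGCANGCG for NRF1, CCGGAAGT for ETS factors such as GABP, and AAGATGGCG for YY1. A palindromic NRF1 match was read on both strands and counted as 1 site, and matches of different motifs did not overlap in the promoters shown. The NRF1 letters occurred in 20 of 63 subunit genes (31.7%) and in 7.03% of all 27025 genes with a promoter, the ETS letters in 5 (7.94%) and 4.31%, and the YY1 letters in 7 (11.1%) and 1.64%. Any of them occurred in 29 of 63 (46.0%) and 11.9%. The 27025 genes were not limited to those expressed here, whereas the subunits had passed a CPM minimum, so the shares are not like for like. The next lines give the 250 bases before the start of 1 gene per complex, 5′ to 3′ on the strand of the gene, with motif matches in capitals. They are Ndufs6 (chr13:73328483-73328732, minus strand, NRF1), Sdha (chr13:74350241-74350490, minus strand, 3 NRF1 matches), Uqcrh (chr4:116075071-116075320, minus strand, ETS), Cox6a1 (chr5:115348959-115349208, minus strand, 2 separate NRF1 sites) and Atp5h (chr11:115419920-115420169, minus strand, NRF1 and ETS). The promoter of Ndufs6 also had the YY1 letters, but not within the 250 bases shown.
Ndufs6: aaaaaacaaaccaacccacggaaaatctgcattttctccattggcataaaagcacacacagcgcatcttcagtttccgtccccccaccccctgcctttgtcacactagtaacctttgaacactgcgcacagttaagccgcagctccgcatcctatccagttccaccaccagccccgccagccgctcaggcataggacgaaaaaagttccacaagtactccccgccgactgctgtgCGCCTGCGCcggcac
Sdha: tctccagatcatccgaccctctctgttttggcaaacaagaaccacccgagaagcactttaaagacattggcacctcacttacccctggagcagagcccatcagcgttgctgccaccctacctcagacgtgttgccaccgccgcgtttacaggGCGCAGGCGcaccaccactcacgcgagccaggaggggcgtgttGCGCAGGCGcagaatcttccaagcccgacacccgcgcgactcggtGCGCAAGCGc
Uqcrh: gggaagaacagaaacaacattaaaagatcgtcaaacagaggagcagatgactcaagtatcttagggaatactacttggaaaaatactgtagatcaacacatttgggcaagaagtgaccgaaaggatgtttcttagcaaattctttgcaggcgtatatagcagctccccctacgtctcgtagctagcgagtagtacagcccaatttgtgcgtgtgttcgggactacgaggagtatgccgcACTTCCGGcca
Cox6a1: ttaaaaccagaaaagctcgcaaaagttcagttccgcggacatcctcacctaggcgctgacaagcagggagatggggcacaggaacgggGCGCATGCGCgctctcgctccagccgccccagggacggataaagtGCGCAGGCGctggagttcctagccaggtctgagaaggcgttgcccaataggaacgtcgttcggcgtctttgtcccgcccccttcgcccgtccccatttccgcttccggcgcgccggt
Atp5h: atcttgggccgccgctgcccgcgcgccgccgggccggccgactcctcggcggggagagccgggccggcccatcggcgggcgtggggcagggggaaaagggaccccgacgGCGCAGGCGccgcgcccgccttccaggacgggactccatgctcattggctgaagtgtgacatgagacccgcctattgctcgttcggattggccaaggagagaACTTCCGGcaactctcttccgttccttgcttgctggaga
Subunits with and without the NRF1 letters had median log2 ratios of 0.30 and 0.29 in T91, 0.04 and 0.01 in T113, and -0.12 and -0.21 in T118. For the ETS letters the medians with and without were 0.28 and 0.30 in T91 and -0.17 and -0.18 in T118, and for the YY1 letters 0.30 and 0.30 in T91 and -0.24 and -0.18 in T118. Genes of both kinds thus had medians above 0 in T91 and below 0 in T118. The genes shown ranged widely, from Sdha at 0.02 to Cox6a1 at 0.32 and Ndufs6 at 0.32 in T91. Cox6a1 stood at 196, 173 and 201 CPM with the Renilla hairpin and at 245, 175 and 168 CPM with the Scrib hairpin. Atp5h, the d subunit of the stalk, stood at 125, 120.0 and 129.9 CPM against 152, 122 and 119.7 CPM.

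The mitochondrial genome encodes 13 of the members, 7 of complex I, 1 of complex III, 3 of complex IV and 2 of complex V. Part of the reads that match these genes had been assigned to chromosome 1. A block on the minus strand of chromosome 1 (chr1:24611535-24616197, GRCm38) holds annotated pseudogenes that copy neighbouring stretches of the mitochondrial genome. Gm28661 matched mt-Co2 over 681 bases without a mismatch, Gm10925 matched mt-Atp6 over 678 bases without a mismatch, and Gm28437 matched mt-Co3 over 783 bases without a mismatch. Gm29216 matched the last 483 bases of mt-Co1 with 1 mismatch, A1066T, counted from 1 at the 5′ end of the mt-Co1 transcript. The next lines show the ends of mt-Co2, mt-Atp6 and mt-Co3, with the bases that the copies lack in capitals. These bases lie just after the aligned stretches, within which gene and copy are identical. For mt-Co1 the only mismatched base of the aligned stretch is in capitals.
mt-Co2 bases 625 to 684: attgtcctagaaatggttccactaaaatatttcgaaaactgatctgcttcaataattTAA
Gm28661 bases 625 to 681: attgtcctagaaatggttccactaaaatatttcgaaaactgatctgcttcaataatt
mt-Atp6 bases 622 to 681: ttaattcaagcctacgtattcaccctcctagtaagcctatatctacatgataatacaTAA
Gm10925 bases 622 to 678: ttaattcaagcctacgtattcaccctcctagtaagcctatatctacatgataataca
mt-Co3 bases 725 to 784: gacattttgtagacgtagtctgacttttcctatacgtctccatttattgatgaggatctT
Gm28437 bases 725 to 783: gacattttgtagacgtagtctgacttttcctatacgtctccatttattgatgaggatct
mt-Co1 bases 1063 to 1122: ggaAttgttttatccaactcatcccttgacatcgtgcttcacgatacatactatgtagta
Gm29216 bases 10 to 69: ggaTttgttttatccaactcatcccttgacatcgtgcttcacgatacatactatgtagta
The copy Gm28661 held 95.6% to 98.4% of the counts it shared with mt-Co2, Gm10925 held 84.7% to 94.4% of those with mt-Atp6 and Gm28437 held 79.0% to 91.1% of those with mt-Co3. Gm29216 held 0.462% to 6.91% of those with mt-Co1, Gm28438 at most 0.876% of those with mt-Nd3, and Gm10222 and Gm28439 none of those with mt-Nd4l and mt-Nd4. Estimated counts divide identical sequence by a model, so the deposited values of mt-Co2, mt-Atp6 and mt-Co3 are uncertain. The counts of each pair were therefore added before their CPM were computed, a step chosen after the data had been seen. The sums take the reads at a copy as mitochondrial, which identical sequence cannot show.

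**Figure D4:**
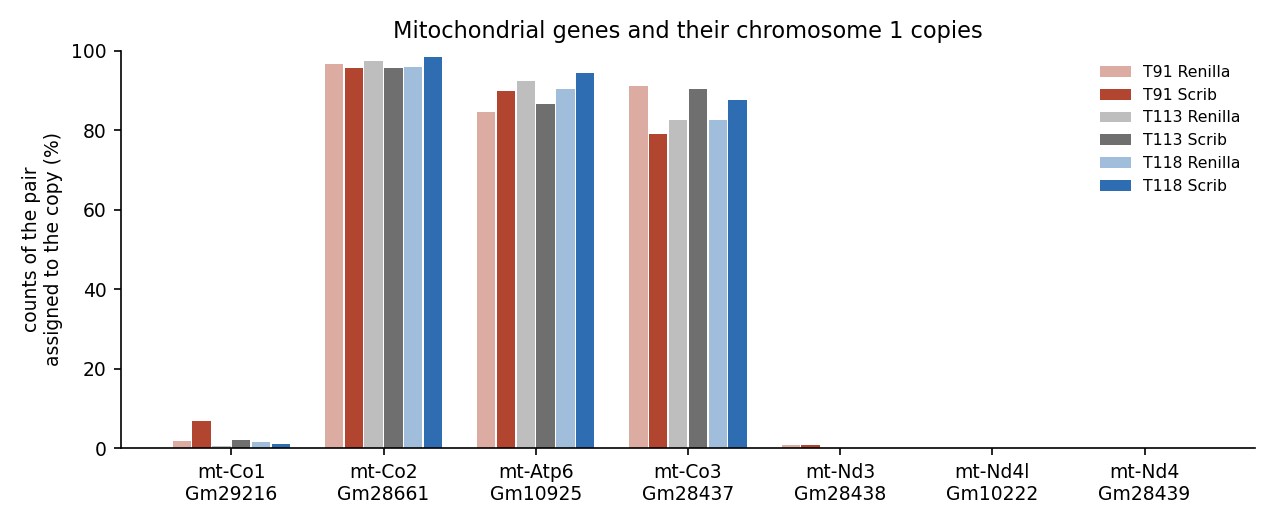
Percentage of the counts of each mitochondrial gene and its chromosome 1 copy that the deposited tables assign to the copy (y axis, from 0), for 7 pairs (x axis) and 6 libraries (bars, pale for the Renilla and full colour for the Scrib hairpin). The copies of mt-Co2, mt-Atp6 and mt-Co3 take 79.0% to 98.4%, and the others under 7%.

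For the subunits of cytochrome c oxidase, adding the copies altered the ratios by different amounts. As deposited, mt-Co3 stood at 158, 468 and 398 CPM with the Renilla hairpin in T91, T113 and T118 and at 579, 159 and 290 CPM with the Scrib hairpin, which gives log2 ratios of 1.88, -1.56 and -0.46. With the copy added it stood at 1764, 2704 and 2274 CPM against 2758, 1631 and 2319 CPM, with ratios of 0.64, -0.73 and 0.03. The ratios of mt-Co2 went from 0.94, 0.12 and -1.34 as deposited to 0.51, -0.59 and 0.01, so that its T113 ratio turned from above to below 0, at 2586, 3309 and 3214 CPM against 3693, 2203 and 3233 CPM. The catalytic subunit gene mt-Co1, the most abundant of all members, stood at 9026, 10528 and 9019 CPM against 10873, 7575 and 8377 CPM with the copy added. It was higher with the Scrib hairpin in T91 and lower in T113 and T118 (0.27, -0.48 and -0.11).

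Of the ATP synthase subunits, mt-Atp6, the proton channel subunit, stood at 1910.1, 2961 and 2930 CPM with the Renilla hairpin and at 2740, 1718 and 3938 CPM with the Scrib hairpin once the copy was added, so that T91 and T118 were higher and T113 lower. As deposited its ratios were -0.09, 0.04 and -0.37, of the opposite sign in each line. The short gene mt-Atp8, which overlaps mt-Atp6, stood at 119.5, 216 and 148 CPM against 140.3, 104 and 442 CPM and had the widest spread of the members once copies were added, 4.23-fold from lowest to highest library.

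The complex I subunits have few or no counts at copies. In T113 all 7 were lower with the Scrib hairpin, in T118 all 7 were higher and in T91 4 of 7 were higher. For mt-Nd1 the values were 2814, 3732 and 3309 CPM with the Renilla hairpin and 3513, 2545 and 4091 CPM with the Scrib hairpin. For mt-Nd4 they were 1136, 1410.1 and 1653 CPM against 1236, 992 and 2078 CPM. Both were higher in T91 and T118 and lower in T113. For mt-Nd2 the values were 979, 1180.0 and 1274 CPM against 919.8, 905 and 1686 CPM. For mt-Nd5 they were 942, 1065 and 1140.3 CPM against 795, 851 and 1323 CPM. These were higher with the Scrib hairpin in T118 and lower in both other lines. The short gene mt-Nd3 stood at 159, 206 and 217 CPM against 218, 141 and 339 CPM. The short gene mt-Nd4l, which overlaps mt-Nd4, stood at 195, 267 and 288 CPM against 161, 170.5 and 374 CPM. Of this pair mt-Nd3 was higher in T91 and mt-Nd4l lower. The gene on the other strand, mt-Nd6, was the least abundant, at 7.44, 7.79 and 11.1 CPM against 11.5, 7.29 and 12.99 CPM. Cytochrome b of complex III, mt-Cytb, stood at 2345, 2290.4 and 3626 CPM against 2334, 2015 and 3651 CPM, with within-line ratios of -0.0069, -0.19 and 0.0099.

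**Figure D5:**
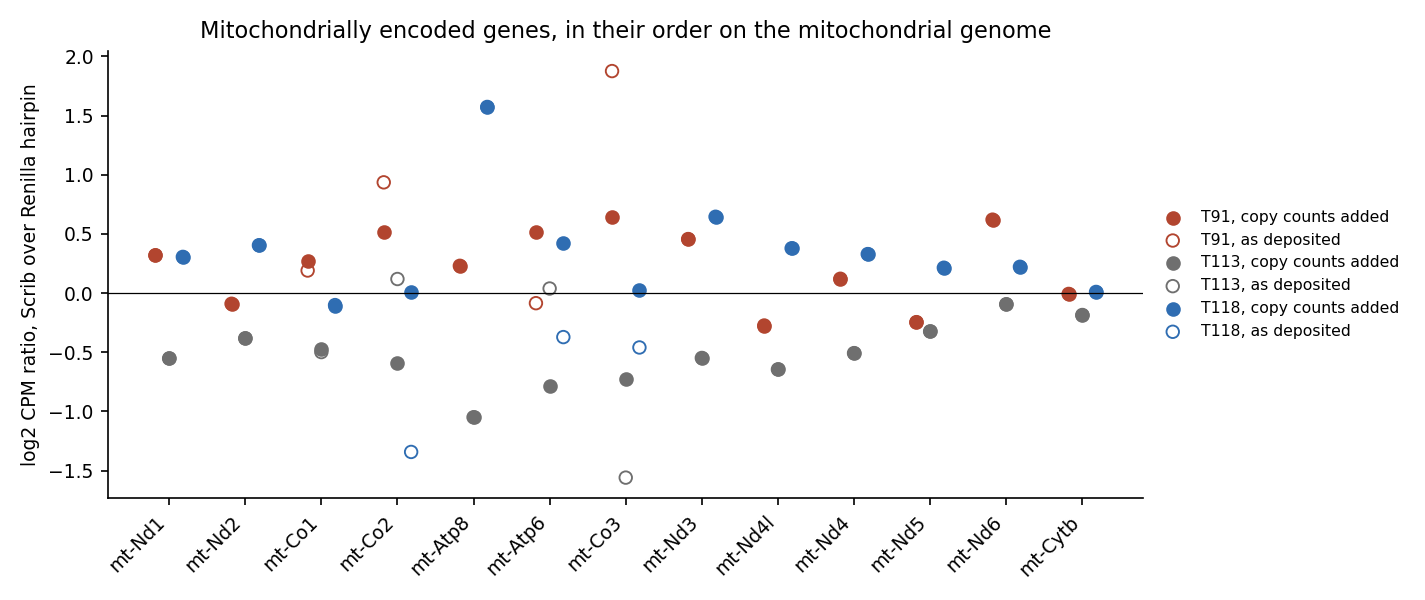
Log2 ratio of CPM, Scrib over Renilla hairpin (y axis), of the 13 mitochondrially encoded genes in their genome order (x axis) for each line. Filled circles include the counts of the chromosome 1 copies and open circles are as deposited. With the copies added, T113 is below 0 at all 13 genes and T118 above 0 at 12, and open and filled circles part mainly at mt-Co2, mt-Atp6 and mt-Co3.

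With copies added, 9, 0 and 12 of the 13 genes were higher with the Scrib hairpin in T91, T113 and T118, with median log2 ratios of 0.27, -0.55 and 0.31. As deposited, the medians were 0.19, -0.50 and 0.22 with 8, 2 and 9 of 13 higher. For the 7 genes with no counts at a copy and no overlap with such a gene, they were -0.0069, -0.38 and 0.31 with 3, 0 and 7 higher. No mitochondrially encoded gene passed for the hairpin with copies added, the lowest being mt-Nd6 (0.25 ± 0.18 SE, edgeR adjusted p = 0.805). The share of all counts from mitochondrial messengers and their copies was 2.39%, 3.06% and 2.84% in the Renilla libraries of T91, T113 and T118 and 2.91%, 2.15% and 3.11% in the Scrib hairpin libraries. The nuclear-encoded subunits took 1.08%, 1.07% and 1.12% against 1.25%, 1.10% and 1.01%. The ratio of mitochondrial to nuclear subunit counts was therefore 2.22, 2.86 and 2.54 in the Renilla libraries and 2.32, 1.96 and 3.07 in the Scrib hairpin libraries, little altered in T91, lower in T113 and higher in T118. With the Scrib hairpin both shares were higher in T91, in T113 the mitochondrial share was lower and the nuclear share slightly higher, and in T118 the mitochondrial share was higher and the nuclear share lower, each without a replicate.

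The lines themselves were compared as well. The F-test of edgeR for a difference between lines called 2 of the 101 members, 1.98%, against 14.0% of all genes tested. The highest line mean was a median of 1.17 times the lowest for nuclear-encoded subunits, 1.56 times for mitochondrially encoded ones and 1.31 times for all genes tested. The members that passed were mt-Cytb (chrM:14145-15288) and Ndufb11 (chrX:20615326-20617619), a complex I accessory subunit. Both mt-Cytb libraries of T118, at 3626 and 3651 CPM, lay above the 4 others, at 2015 to 2345 CPM, and the log2 difference was 0.64 from T91 and 0.76 from T113 (edgeR adjusted p = 0.0136). Both Ndufb11 libraries of T91, at 108 CPM with the Renilla and 133 CPM with the Scrib hairpin, lay above the others, at 62.7 to 71.3 CPM, and T113 and T118 differed from T91 by -0.85 and -0.84 on the log2 scale (edgeR adjusted p = 0.0153). T91 was the only line from a female and the lines also differed in passage, so line, sex and passage cannot be told apart. Without T118, 1 member passed, and without T91, 7 did. The next smallest values belonged to mt-Nd4l (edgeR adjusted p = 0.0883), Ndufaf4 (0.107) and mt-Nd4 (0.109).

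Genes that serve the respiratory chain were described by the same fit, and none of these lists held a gene that passed. Of all genes tested, 48.2% had a fold change above 0. In the citric acid cycle and pyruvate dehydrogenase list, 15 of 18 tested genes had a fold change above 0, with a median log2 fold change of 0.04, and the smallest p belonged to Idh3a, a subunit of the NAD-dependent isocitrate dehydrogenase (0.16 ± 0.09 SE, edgeR adjusted p = 0.783). Among the electron carriers and subunits without the prefixes, 9 of 18 were above 0, with a median of 0.0099. Etfdh, which feeds electrons from fatty acid oxidation to ubiquinone, stood at 44.1, 52.0 and 56.5 CPM against 41.8, 47.0 and 44.6 CPM, lower in each line (-0.19 ± 0.10 SE, edgeR adjusted p = 0.781). Sqor, which oxidises sulphide, stood at 122, 162 and 270.0 CPM against 140.2, 125 and 156 CPM (-0.32 ± 0.18 SE). Of 40 assembly factors outside the symbol rule 28 were above 0, with a median of 0.08. Cmc2, a cytochrome c oxidase assembly factor, stood at 22.6, 21.0 and 26.4 CPM against 28.8, 27.1 and 30.8 CPM, higher in each line (0.31 ± 0.10 SE, edgeR adjusted p = 0.735). Regulators of mitochondrial biogenesis were above 0 in 15 of 19, with a median of 0.08. Within T91, T113 and T118, 8, 15 and 15 of these regulators were higher, with median log2 ratios of -0.02, 0.10 and 0.09. Among them, Pprc1, a coactivator of the PGC1 family, had log2 ratios of -0.19, 0.34 and 0.46 (fitted 0.21 ± 0.14 SE). Polrmt, the mitochondrial RNA polymerase, had 0.05, 0.25 and 0.11 (fitted 0.14 ± 0.10 SE). Genes for mitochondrial RNA processing and stability were above 0 in 19 of 20, with a median of 0.12. Their median log2 ratios within T91, T113 and T118 were 0.03, 0.09 and 0.23. Those of the mitochondrial messengers with copies added were 0.27, -0.55 and 0.31. Mtpap, the mitochondrial poly(A) polymerase, stood at 29.1, 44.6 and 28.4 CPM against 32.8, 45.5 and 39.3 CPM (0.22 ± 0.12 SE). Trmt10c, a subunit of mitochondrial RNase P, stood at 30.6, 28.5 and 31.8 CPM against 33.2, 31.7 and 37.1 CPM (0.16 ± 0.09 SE).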

How the data were processed

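Each library's table, as the authors deposited it, holds estimated counts for Ensembl genes, made with Salmon 1.4.0 on GRCm38 (mm10) per the submitters' processing notes. These also name DESeq 2, but what it was used for, as well as annotation and strand setting, is not given in the sources used here. Labels speak of virus infection, the series' design text of transfected plasmids. Of 54453 identifiers, 54200 matched GENCODE vM21 and 253 were kept by identifier alone. Estimated counts were rounded, filtered (filterByExpr, minimum count 10) and scaled by TMM in edgeR 4.0.16, which left 14169 genes. The quasi-likelihood test had terms for hairpin and line, two-sided, Benjamini-Hochberg adjusted over all genes tested, threshold 0.05. CPM values use scaled library sizes, except for the membership minimum, the marker sums and genes under the minimum. The line is the pairing: deviations from group means correlated at 0.621 to 0.666 within lines. The fit was also run on counts simulated from its own means and dispersions, with the same fold change in each line. Such counts cannot show how it treats changes that differ between lines. Near-identical copies were sought among GENCODE transcripts with blastn 2.17.0 (identity of at least 97% over at least 50%). The members, lists and named genes (Scrib, all mitochondrial genes, the smallest p per complex and direction, the highest CPM per complex, isoform pairs, line calls and the smallest p per list) were chosen with earlier results of these data known. Ndufa1, Ndufs1, Ndufc2, Cox6a1, Atp5h and Atp5l were named after their values were seen. Alternatives were other scalings, filters, thresholds and tools (DESeq2 1.42.0, limma 3.58.1), no line term and leaving out each line. Some genes that the naming rule takes in are not reported here.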

Additional observations from a re-analysis of the deposited data

Results flagged for a closer look

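The within-line ratios of the nuclear-encoded subunits had a median of 0.30 on the log2 scale in T91 and -0.18 in T118, with 74 and 2 of 75 subunits above 0, so that nearly every subunit went one way in 1 line and the other way in the other. The difference between the lines was not tested, since each line had 1 library per hairpin. Coding length moved with it, at 0.17 in T91 and -0.05 in T118 for all protein-coding genes of up to 858 coding bases, and its part was not tested.

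Counts assigned to chromosome 1 pseudogenes lie outside the symbol rule yet hold reads that match members. At their highest, Gm28661 held 98.4% of the counts it shares with mt-Co2, Gm10925 held 94.4% of those with mt-Atp6 and Gm28437 held 91.1% of those with mt-Co3. Gm29216 reached 6.91% of the counts with mt-Co1 in the T91 Scrib hairpin library, where the other libraries lay between 0.462% and 2.05%.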

How the results depend on the processing

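No member passed for the hairpin under any of the 14 alternatives run. The number of genes that passed for the hairpin was 1, and it was 64 with no low-count filter, 63 with DESeq2, 8 with limma-voom and 9 to 94 with a line left out. Genes that differed between lines numbered 1989, 1310 with a mean CPM of at least 5, and 1209 to 3305 with a line left out. Members that differed between lines numbered 2, 5 with no low-count filter, 7 with DESeq2 and 1 to 7 with a line left out. Without the replicate block (no line term) 1 gene and 0 members passed for the hairpin, and the medians were 0.05 for nuclear-encoded and 0.03 for mitochondrially encoded subunits. Leaving out 1 line turned the sign of each median. The nuclear one turned to -0.09 without T91 and kept its sign at 0.14 without T118. The mitochondrial one turned to 0.16 without T113 and kept its sign at -0.12 without T118. With the chromosome 1 copies added, chosen after seeing the data, the mitochondrial median was -0.02. The cause of these shifts was not tested. The fit had 3 lines, 2 residual degrees of freedom and 1 library per line and hairpin, which limits its precision.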

Other observations

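Genes that build and supply mitochondria beyond the respiratory chain were mostly above 0 with the Scrib hairpin, and none passed. The share above 0 was 48.2% over all genes tested. All protein-coding genes of up to 858 coding bases had median within-line ratios of 0.17 in T91 and -0.05 in T118. The part of coding length in these lists was not tested. Of 78 mitochondrial ribosomal protein genes, 74 had a fitted log2 fold change above 0, with a median of 0.12, and their median within-line ratios in T91, T113 and T118 were 0.21, 0.12 and 0.04. Mrpl55, a large-subunit protein, stood at 20.7, 18.2 and 20.2 CPM with the Renilla hairpin in T91, T113 and T118 and at 27.4, 20.6 and 23.8 CPM with the Scrib hairpin (0.27 ± 0.11 SE, edgeR adjusted p = 0.753). Mrpl46 stood at 29.4, 28.4 and 33.6 CPM against 37.8, 33.5 and 36.9 CPM (0.24 ± 0.10 SE). Both were higher in each line.

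Of 23 genes for mitochondrial mass and protein import, 21 were above 0, with a median of 0.11 and within-line medians of 0.10, 0.11 and 0.12 in T91, T113 and T118. Timm50, a receptor of the inner-membrane translocase, stood at 93.1, 82.8 and 102 CPM against 114, 97.7 and 118.3 CPM (0.25 ± 0.09 SE, edgeR adjusted p = 0.746). Tomm40, the pore of the outer-membrane translocase, stood at 231, 182 and 229 CPM against 246, 230.2 and 280.3 CPM (0.24 ± 0.10 SE, edgeR adjusted p = 0.753). Every within-line median of both lists was above 0, while that of the nuclear-encoded respiratory subunits in T118 was -0.18. Among 77 cytosolic ribosomal protein genes, 76 were above 0 in the fit, with a median of 0.12. Within T91, T113 and T118, 77, 73 and 18 of them were higher with the Scrib hairpin. Higher in T91 and lower in T118 were 59, or 76.6%, against 28.7% of all genes tested.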
